A study of Arabidopsis thaliana with 6 samples.

Results

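Jasmonate is a lipid-derived hormone of wounding, defence and growth restraint. The genes described here make it, conjugate it, sense it, repress or carry out its MYC-dependent response, and break it down. They are 45 loci, listed by name, but the list was chosen with earlier results of these data known. All 45 have at least 1 row among the 29920 loci of the array table. VSP1 and VSP2 have 2 rows each, so the 45 genes take up 47 of 30237 rows.

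The arrays were AGRONOMICS1 tiling arrays, which received biotin-labelled RNA of leaf 3 of Arabidopsis thaliana ecotype Col-0, at an age given as 9 DAS. Of 6 arrays, 3 were of ERF6:IOE, described as a strong overexpressor of the transcription factor gene ERF6, and 3 were of the control line GFP:IOE. Seedlings of both lines spent 4 h on medium with 5 µM dexamethasone before harvest, so neither line is untreated. Leaves were pooled from several plates, and the number of biological repeats was 3 per line. The promoter that drives each transgene and the number of independent insertions were not stated in the labels or the design text. Arrays from before induction were not analysed here, so differences that predate dexamethasone are included.

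In leaves, jasmonate synthesis starts in the chloroplast, where lipases release linolenic acid and lipoxygenases (LOX), allene oxide synthase (AOS) and allene oxide cyclases (AOC) turn it into the precursor OPDA. In the peroxisome the reductase OPR3, the ligase OPCL1 and acyl-CoA oxidases such as ACX1 finish the hormone, and JAR1 couples it to isoleucine. The conjugate joins the receptor COI1 to JAZ repressors, which are then degraded, and this frees MYC2, MYC3 and MYC4 to switch on genes such as VSP1 and VSP2. A second output, the ERF branch, runs through ORA59 to the defensin PDF1.2, and the MYC and ERF branches are known to oppose each other. Many, but not all, JAZ, LOX and AOC genes are themselves induced by jasmonate, as are CYP94 and jasmonate oxidase genes that inactivate it.

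The ERF6 transcript stood at 10.12 ± 0.25 log2 units in ERF6:IOE and at 7.27 ± 0.34 in GFP:IOE (SD, n = 3 arrays each), which is a 7.22-fold difference (log2 fold 2.85, 95% interval 2.38 to 3.32, limma adjusted p 0.00107). Of the 4 measured leaf markers, which encode parts of the photosynthetic machinery, all had line means between 11.83 and 14.21 log2 units in either line. The 22 markers of root, flower, vascular tissue, guard cells, trichomes and meristem had means from 3.92 to 7.63 in ERF6:IOE and from 3.84 to 7.64 in GFP:IOE, and none of the 26 markers passed the test in limma. At an unadjusted p of 0.05 the flower marker SEP3 was higher (log2 fold 0.74) and the root marker CASP1 lower (-0.24). The array table has no detection calls, so low values cannot be told from absence. In RNA of a whole leaf, fewer cells of a type and less RNA per cell cannot be told apart. Where nothing else is said, values are log2 expression, folds are ERF6:IOE minus GFP:IOE on the log2 scale, and adjusted p-values are from limma over all 30237 rows, with a threshold of 0.05.

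Of the 45 jasmonate genes, 2 were higher in ERF6:IOE and 0 were lower. The 2 were AOC1, an allene oxide cyclase gene of synthesis, and JAZ6, a repressor gene. Of all rows, 0.698% were called higher and 0.0265% lower. At an unadjusted p of 0.05 there were 5 jasmonate genes higher and 2 lower, or 11.1% and 4.44% of them, against 4.8% and 3.22% of all rows. Besides AOC1 and JAZ6, those higher were AOC2, CLH1 and AT5G05600, and those lower were LOX3 and JAZ3. The lines did not overlap in 6 genes with ERF6:IOE above, these and MYC3, and in the 2 genes with ERF6:IOE below, or 13.3% and 4.44%, against 6.93% and 6.52% of all rows. Because the genes were chosen with earlier results known, these shares are a description and were not tested. The median log2 fold of the 45 genes was -0.02, the same to 2 decimals as the -0.02 over all rows, and 21 of them had a positive value. Of the 43 genes that did not pass, 40 had a 95% interval inside a 2-fold change in either direction. The other 3 were VSP1, VSP2 and CLH1, all MYC2 marker genes.

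**Figure D1:**
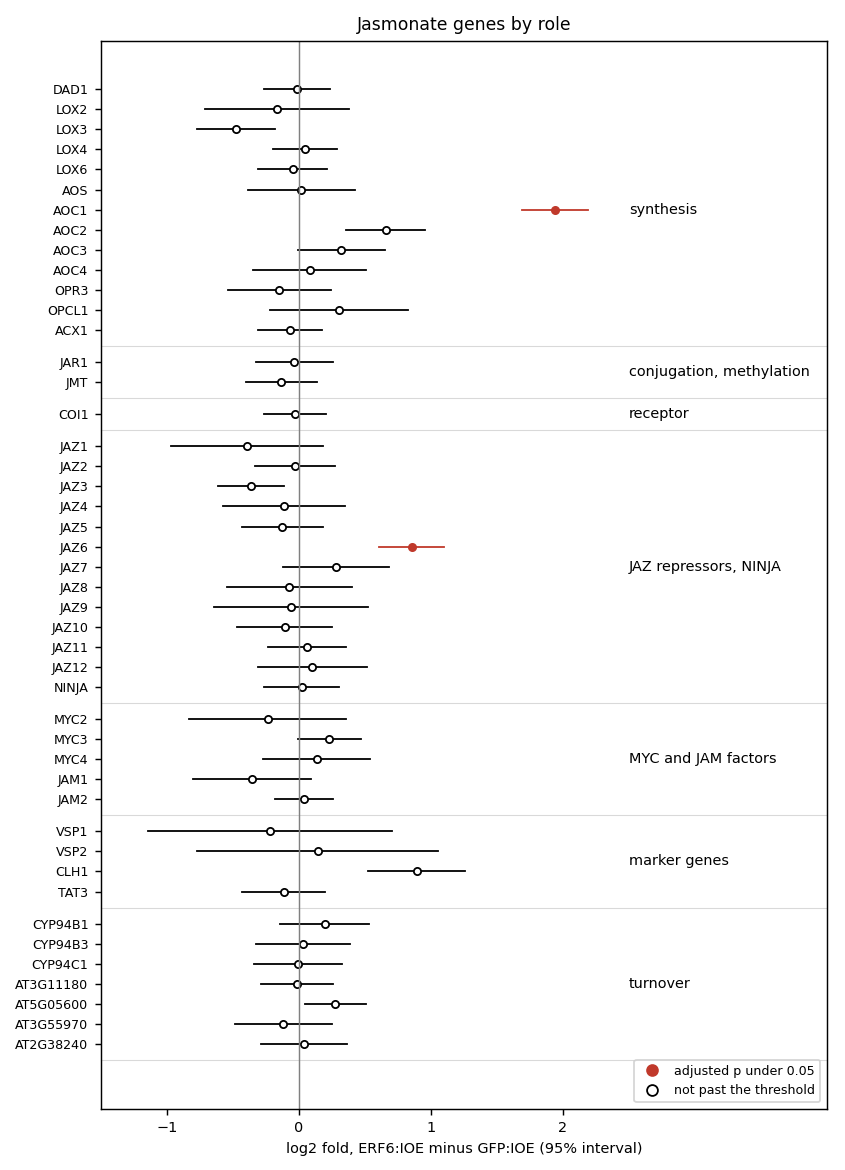
Log2 fold of each of the 45 jasmonate genes (horizontal axis, ERF6:IOE minus GFP:IOE, with 95% intervals from limma), ordered by role from synthesis at the top to turnover at the bottom. Filled red points mark AOC1 and JAZ6, the 2 genes past the adjusted p of 0.05; open points mark the other 43, and the widest intervals belong to VSP1 and VSP2.

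Among the 13 synthesis genes, 1 rose, none fell and 12 did not pass, against 0.698% of all rows higher and 0.0265% lower. Their log2 folds had a median of 0.02 and a range from -0.48 to 1.94. The gene that rose encodes an allene oxide cyclase, the enzyme that fixes the stereochemistry of the jasmonate ring. AOC1 (AT3G25760) read 8.36, 8.23 and 8.49 in ERF6:IOE repeats 1 to 3, against 6.47, 6.44 and 6.34 in GFP:IOE. The ERF6:IOE arrays all lay far above the GFP:IOE arrays, and the arrays of a line differed little from each other. The log2 fold was 1.94 (SE 0.11, 95% interval 1.69 to 2.19), equal to 3.84-fold, and limma gave an adjusted p of 0.000311. The call held in each of 18 alternative settings, with log2 folds from 1.84 to 2.02.

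The other 3 cyclase genes had smaller differences, and none passed. AOC2 (AT3G25770) read 8.67, 8.63 and 9.03 in ERF6:IOE, against 8.10, 8.13 and 8.13 in GFP:IOE. The lines did not overlap for AOC2, as was so for 6.93% of all rows in the higher direction, and the log2 fold was 0.66 (95% interval 0.36 to 0.96, limma adjusted p 0.102). AOC2 came below the threshold in 2 of the alternatives. These were rows restricted to the brighter 50% (limma adjusted p 0.0375) and a variance trend with robust prior (0.0383). AOC3 (AT3G25780) read 4.99, 5.03 and 4.79 in ERF6:IOE, against 4.38, 4.65 and 4.82 in GFP:IOE, with 1 GFP:IOE array inside the range of ERF6:IOE. Its log2 fold was 0.32 (interval -0.01 to 0.65). AOC4 (AT1G13280) averaged 7.70 ± 0.34 in ERF6:IOE and 7.62 ± 0.17 in GFP:IOE, a log2 fold of 0.08 (interval -0.35 to 0.51).

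AOC1, AOC2 and AOC3 are direct neighbours in this order on the chromosome, per the name table of assembly TAIR10.1, while AOC4 is on another chromosome. The 3 neighbours therefore had log2 folds of 1.94, 0.66 and 0.32. The cyclases were also set against AOC1 within each array. The difference AOC1 minus AOC2 was -0.54 to -0.31 on the ERF6:IOE arrays and -1.79 to -1.63 on the GFP:IOE arrays. For AOC1 minus AOC4 it was 0.27 to 1.05 in ERF6:IOE and -1.32 to -0.96 in GFP:IOE. Each of 4 such pairs (AOC1 against AOC2, AOC3 and AOC4, and JAZ6 against JAZ5) gave a two-sided exact permutation p of 0.1, also 0.1 after Benjamini-Hochberg adjustment, which is the smallest that 3 against 3 arrays allow. These pairs were chosen with the values known, so their p-values give no further support to the calls. Signal that the cyclase transcripts may share on the array was not examined and not separated in the deposited values.

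**Figure D2:**
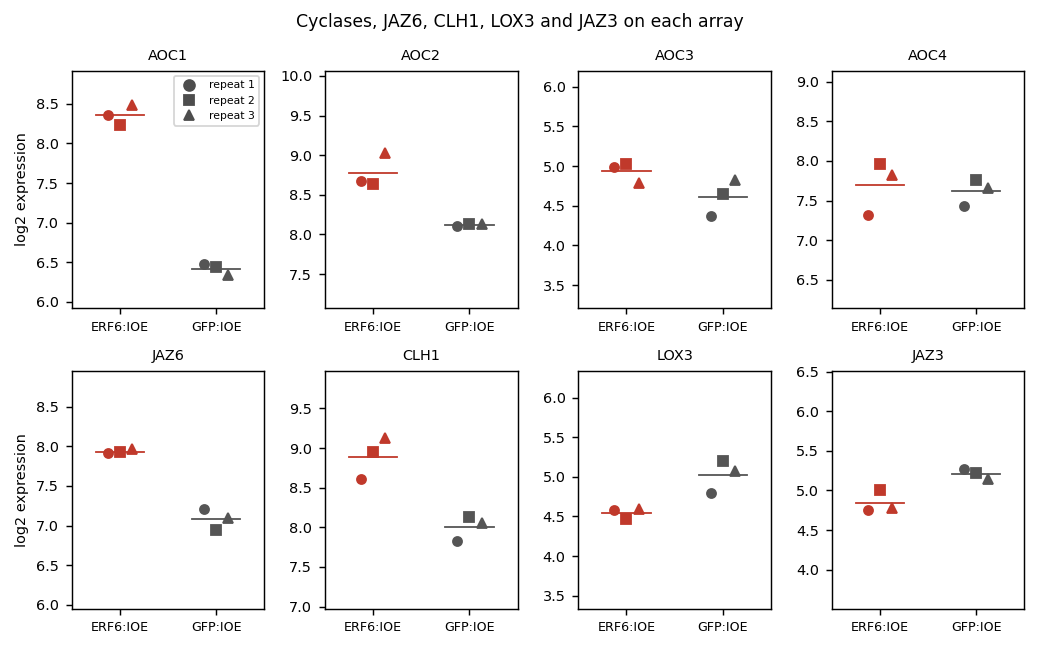
Log2 expression (vertical axis, each panel spanning the same number of log2 units) of 4 cyclase genes, JAZ6, CLH1, LOX3 and JAZ3 on each array, ERF6:IOE left and GFP:IOE right; symbols mark the repeat number and lines the mean of 3 arrays. The lines are apart for AOC1, AOC2, JAZ6 and CLH1 with ERF6:IOE above, and for LOX3 and JAZ3 with ERF6:IOE below, and AOC4 overlaps.

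Upstream of the cyclases, no gene passed. LOX3 (AT1G17420), a lipoxygenase gene known from wounding and male fertility, read 4.58, 4.47 and 4.59 in ERF6:IOE, against 4.79, 5.20 and 5.08 in GFP:IOE. All 3 ERF6:IOE arrays lay below all GFP:IOE arrays, as was so for 6.52% of all rows in this direction. The log2 fold was -0.48 (interval -0.77 to -0.18) with an adjusted p of 0.274 (limma). Its close relative LOX4 had a log2 fold of 0.05 (interval -0.20 to 0.29) and LOX6, which acts early after wounding, of -0.05 (interval -0.31 to 0.22). LOX2, the abundant leaf lipoxygenase of the wound response, averaged 6.67 ± 0.46 in ERF6:IOE and 6.84 ± 0.23 in GFP:IOE. AOS, the single-copy enzyme between lipoxygenase and cyclase, averaged 5.83 ± 0.28 and 5.81 ± 0.21 in ERF6:IOE and GFP:IOE, so its log2 fold of 0.02 (interval -0.39 to 0.42) was smaller than the spread between arrays. DAD1, a lipase gene best known from anthers, had a log2 fold of -0.02 (interval -0.27 to 0.23).

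The peroxisomal steps did not pass either. OPR3, the reductase of the main route, averaged 6.82 ± 0.31 in ERF6:IOE and 6.97 ± 0.13 in GFP:IOE, a log2 fold of -0.15 (interval -0.54 to 0.24). OPCL1 read 5.47, 5.92 and 5.82 in ERF6:IOE, against 5.00, 5.85 and 5.45 in GFP:IOE, with overlapping lines and a log2 fold of 0.30 (interval -0.22 to 0.83). ACX1, which shortens the side chain, had a log2 fold of -0.07 (interval -0.31 to 0.17). JAR1, the enzyme that makes the active isoleucine conjugate, had a log2 fold of -0.04 (interval -0.33 to 0.25), and JMT, which forms the volatile methyl ester, of -0.13 (interval -0.40 to 0.14). COI1, the F-box receptor, averaged 5.48 ± 0.05 in ERF6:IOE and 5.51 ± 0.11 in GFP:IOE, a log2 fold of -0.03 (interval -0.27 to 0.21).

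Among 13 repressor genes, 12 JAZ genes and the adaptor NINJA, 1 rose, none fell and 12 did not pass. Over all rows, 0.698% were called higher and 0.0265% lower. The median log2 fold of the 13 genes was -0.06. JAZ6 (AT1G72450) read 7.91, 7.92 and 7.96 in ERF6:IOE, against 7.21, 6.94 and 7.09 in GFP:IOE. The ERF6:IOE arrays were nearly identical to each other. All lay above the GFP:IOE arrays, as was so for 6.93% of all rows. The log2 fold was 0.85 (SE 0.10, interval 0.61 to 1.10), equal to 1.81-fold, and limma gave an adjusted p of 0.0162. The log2 fold stayed between 0.78 and 0.93 in 18 alternatives, but the adjusted p moved above the threshold without ERF6:IOE replicate 1, 2 or 3 (0.0632, 0.0806 and 0.0808) and without GFP:IOE replicate 2 or 3 (0.0711 and 0.0724). Without GFP:IOE replicate 1 it was 0.04, and without 1 repeat of both lines it was 0.128, 0.25 and 0.246. Blocking on the repeat number gave 0.0595, so the call was lost there too.

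No other JAZ gene passed. JAZ5, its closest relative, averaged 4.43 ± 0.08 in ERF6:IOE and 4.56 ± 0.22 in GFP:IOE, a log2 fold of -0.13 (interval -0.43 to 0.18). The difference JAZ6 minus JAZ5 was 3.44 to 3.57 on the ERF6:IOE arrays and 2.32 to 2.87 on the GFP:IOE arrays. Its permutation p is given above, for a pair chosen with the values known. JAZ3 (AT3G17860), a repressor that binds MYC2, read 4.75, 5.00 and 4.79 in ERF6:IOE, against 5.27, 5.23 and 5.14 in GFP:IOE. It lay lower in ERF6:IOE on all arrays, as was so for 6.52% of all rows. Its log2 fold of -0.36 (interval -0.62 to -0.11) had an adjusted p of 0.344 (limma). JAZ1 read 4.96, 4.94 and 4.94 in ERF6:IOE, against 4.77, 5.39 and 5.85 in GFP:IOE. GFP:IOE was spread widely there, 1 of its arrays was the lowest of all, and the log2 fold was -0.39 (interval -0.97 to 0.18).

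JAZ7, JAZ8 and JAZ10, genes that jasmonate is known to induce quickly, had log2 folds of 0.28 (interval -0.12 to 0.68), -0.07 (interval -0.55 to 0.40) and -0.11 (interval -0.47 to 0.25). JAZ7 averaged 3.82 ± 0.16 in ERF6:IOE and 3.54 ± 0.31 in GFP:IOE, below the lower quartile of every array (4.03 to 4.08), where values are compressed. JAZ2, JAZ4, JAZ9, JAZ11 and JAZ12 had log2 folds between -0.11 (JAZ4) and 0.10 (JAZ12), all with intervals that include 0. NINJA, which links JAZ proteins to the corepressor TOPLESS, averaged 7.14 ± 0.13 in ERF6:IOE and 7.12 ± 0.15 in GFP:IOE.

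None of the 5 bHLH factor genes passed, and their median log2 fold was 0.04. MYC2, the main activator of the branch, read 5.28, 5.86 and 5.78 in ERF6:IOE, against 5.34, 6.16 and 6.13 in GFP:IOE. It was lower in ERF6:IOE in 3 of 3 repeats, by 0.06, 0.30 and 0.35 log2 units, but the lines overlapped and the log2 fold was -0.24 (interval -0.83 to 0.36). MYC3 read 5.81, 6.05 and 5.84 in ERF6:IOE, against 5.65, 5.68 and 5.68 in GFP:IOE. Its lines did not overlap, as was so for 6.93% of all rows in the higher direction. The log2 fold was only 0.23 (interval -0.01 to 0.47, limma adjusted p 0.652). MYC4 had a log2 fold of 0.14 (interval -0.27 to 0.54). The JAM factors compete with MYC proteins at the same sites and repress. JAM1 (AT2G46510, AIB in the name table) read 5.02, 4.85 and 5.38 in ERF6:IOE, against 5.11, 5.69 and 5.52 in GFP:IOE, a log2 fold of -0.36 (interval -0.80 to 0.09). JAM2 (AT1G01260) averaged 5.35 ± 0.09 in ERF6:IOE and 5.31 ± 0.01 in GFP:IOE.

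The 4 MYC2 marker genes gave 0 calls in limma and 1 at an unadjusted p of 0.05, CLH1. At that unadjusted p, 4.8% of all rows were higher. VSP2, a vegetative storage protein gene used as the classic reporter of the MYC branch, read 5.99, 6.58 and 7.51 in ERF6:IOE, against 6.18, 6.41 and 7.07 in GFP:IOE on its brighter row. Both lines were highest in repeat 3, the lines overlapped, and the log2 fold was 0.14 (interval -0.77 to 1.06). VSP1 read 4.33, 4.23 and 5.65 in ERF6:IOE, against 4.66, 4.74 and 5.47 in GFP:IOE, again highest in repeat 3 of both lines, with a log2 fold of -0.22 (interval -1.14 to 0.71). The second row of VSP2 had a log2 fold of 0.11 and that of VSP1 of -0.16. TAT3, a tyrosine aminotransferase gene, had a log2 fold of -0.12 (interval -0.43 to 0.20).

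CLH1 (AT1G19670), a chlorophyllase gene also known as coronatine-induced, was the marker with the clearest separation. It read 8.60, 8.95 and 9.12 in ERF6:IOE, against 7.82, 8.13 and 8.05 in GFP:IOE. All ERF6:IOE arrays lay above all GFP:IOE arrays, as was so for 6.93% of all rows. The log2 fold was 0.89 (SE 0.16, interval 0.52 to 1.26), about as large as that of JAZ6, but the wider spread between arrays left the adjusted p at 0.0709 (limma). It passed in 3 of 18 alternatives. These were rows above the 30th percentile of level (limma adjusted p 0.037), rows above the median level (0.0262) and a variance trend with robust prior (0.0265). With the repeat number as a block, the limma adjusted p was 0.0568 for CLH1 and 0.0595 for JAZ6, so neither passed there.

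None of the 7 turnover genes passed, and their median log2 fold was 0.03. The CYP94 enzymes oxidise the isoleucine conjugate, and CYP94B1, CYP94B3 and CYP94C1 had log2 folds of 0.19 (interval -0.14 to 0.53), 0.03 (interval -0.32 to 0.39) and 0.00 (interval -0.34 to 0.33). The 4 loci listed as jasmonate oxidase (JOX) genes had log2 folds of -0.02 (AT3G11180), 0.28 (AT5G05600), -0.12 (AT3G55970, JRG21 in the name table) and 0.04 (AT2G38240). AT5G05600 read 4.63, 4.62 and 4.68 in ERF6:IOE, against 4.35, 4.48 and 4.27 in GFP:IOE. Its lines were apart, as was so for 6.93% of all rows in the higher direction. Its interval of 0.05 to 0.51 was narrow, and the adjusted p was 0.483 (limma). Line means of the 7 genes ran from 3.90 to 4.64 in ERF6:IOE and from 3.86 to 4.45 in GFP:IOE, all below the array medians (4.85 to 4.90), and the CYP94B3 means of 3.90 in ERF6:IOE and 3.86 in GFP:IOE lay below the lower quartile of every array, although GFP:IOE repeat 3 alone (4.17) did not. RMA compresses values near the floor, but whether that affected these folds was not tested.

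By role, the median log2 folds were 0.02 for synthesis, -0.06 for repressors, 0.04 for the MYC and JAM factors, 0.01 for the MYC2 markers and 0.03 for turnover. Differences between roles were not tested.

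Several genes of the MYC branch varied more between repeats than between lines. Of the 45 genes, 6 had a spread between arrays of a line above the 90th percentile of all rows, namely VSP1, VSP2, MYC2, JAZ9, JAZ1 and LOX2. For VSP2 the mean of both lines was 6.08, 6.49 and 7.29 in repeats 1 to 3, a wider range than the difference between the lines. For MYC2 it was 5.31, 6.01 and 5.95, and for LOX2 6.47, 6.69 and 7.11. MYC2 and JAZ9 were lowest in repeat 1 in both lines, and VSP1, VSP2 and LOX2 highest in repeat 3 in both. In 27 of the 45 genes (60%) the mean of both lines was lowest in repeat 1, against 34.1% of all rows. Since jasmonate genes are known to move together, these are not 27 separate observations, and no test was made. AOC1 and JAZ6 varied less than this, with means over both lines of 7.42, 7.33 and 7.42 for AOC1 and of 7.56, 7.43 and 7.53 for JAZ6.

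**Figure D3:**
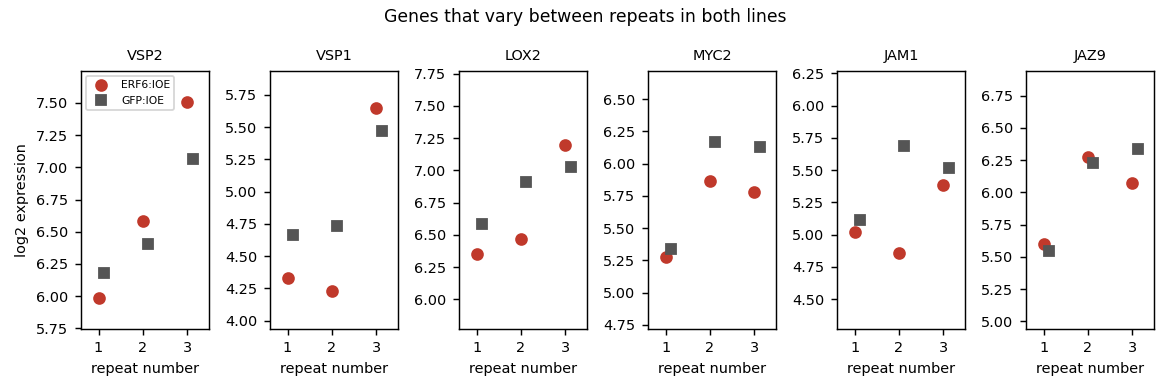
Log2 expression (vertical axis, equal span in every panel) of VSP2, VSP1, LOX2, MYC2, JAM1 and JAZ9 against the repeat number (horizontal axis), 1 point per array, ERF6:IOE in red and GFP:IOE in grey. VSP2, VSP1 and LOX2 are highest in repeat 3 in both lines, and MYC2 and JAZ9 lowest in repeat 1.

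The 23 further jasmonate genes covered fatty acid desaturation, transport, beta-oxidation, conjugate hydrolysis, corepression and other bHLH factors. Their median log2 fold was 0.04. Of these, 1 was called higher and 22 were not called, against 0.698% called higher over all rows. The one was OPR1 (AT1G76680), a relative of OPR3 with little activity on the natural jasmonate precursor. OPR1 read 7.04, 7.23 and 7.42 in ERF6:IOE, against 6.11, 6.22 and 6.02 in GFP:IOE, a log2 fold of 1.12 (interval 0.82 to 1.41) with 0.0111 as the limma adjusted p. Its adjusted p moved above the threshold without ERF6:IOE replicate 2 (0.0581) and without GFP:IOE replicate 1 or 3 (0.058 and 0.0539), and without any 1 repeat of both lines (0.11, 0.187 and 0.149). Blocking on the repeat number gave 0.051. IAR3, an amidohydrolase gene that splits jasmonate and auxin conjugates, had a log2 fold of 0.50 (interval 0.26 to 0.74) with an adjusted p of 0.127 (limma), and ST2A, a sulfotransferase gene for hydroxyjasmonate, of 0.27 (interval -0.08 to 0.62).

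The 8 further genes of the MYC branch had a median log2 fold of 0.09, and 0 passed in limma. At an unadjusted p of 0.05, 1 was lower, against 3.22% of all rows. That gene was ARGAH2, an arginase gene induced by jasmonate. It read 5.76, 6.01 and 5.80 in ERF6:IOE, against 6.41, 6.35 and 6.48 in GFP:IOE, a log2 fold of -0.56 (interval -0.81 to -0.30, limma adjusted p 0.099), and -0.72 on its second, dimmer row. CORI3, a cystine lyase gene, had a log2 fold of -0.44 (interval -0.88 to 0.00) and TPS04, a terpene synthase gene, of 0.20 (interval -0.02 to 0.42).

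In the ERF branch the differences were larger. Of its 6 measured genes 4 rose and the other 2 were not called, against 0.698% of all rows called higher. ORA59 read 7.35, 7.24 and 7.20 in ERF6:IOE, against 4.56, 4.27 and 4.10 in GFP:IOE, a log2 fold of 2.95 (limma adjusted p 0.000129). PDF1.2 read 11.71, 10.86 and 11.78 in ERF6:IOE, against 5.31, 2.70 and 4.18 in GFP:IOE, where its SD was 1.31. The GFP:IOE repeat 2 value of 2.70 lay below the lower quartile of every array (4.03 to 4.08). The log2 fold of PDF1.2 was 7.39 (interval 5.97 to 8.80), and 6.70 without that array. PDF1.2b and PR4 had log2 folds of 6.62 and 2.27. Whether PDF1.2 and PDF1.2b share signal was not examined. The call of PDF1.2 was lost without replicate 3 of both lines (limma adjusted p 0.0633), and that of PR4 without ERF6:IOE replicate 2 or 3 (0.0832 and 0.0714) and without GFP:IOE replicate 1 or 2 (0.0818 and 0.0645), and also without repeat 1 or 2 of both lines (0.132 and 0.214). ERF1 (0.14) and PR3 (0.05) did not pass. These genes are known from earlier results of the same arrays, so the contrast with the 4 MYC2 markers, whose log2 folds ran from -0.22 to 0.89, is a description and was not tested.

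**Figure D4:**
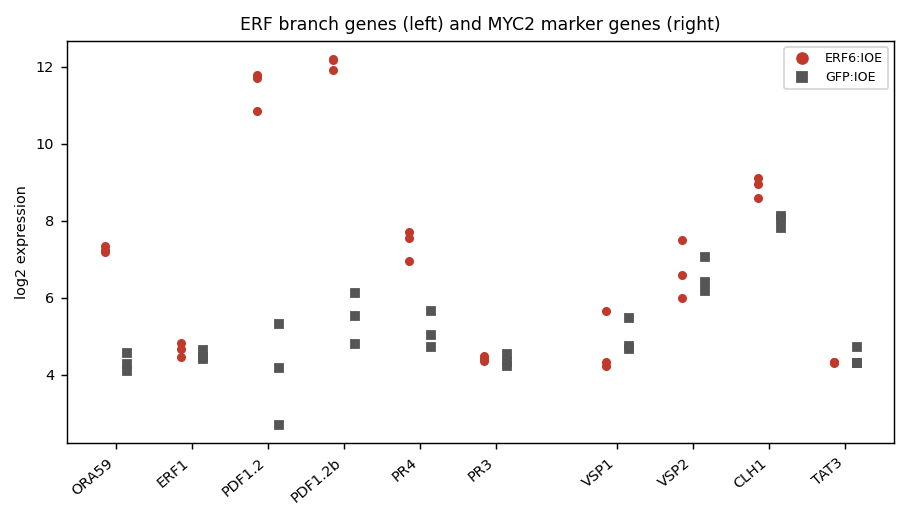
Log2 expression (vertical axis) on each of the 6 arrays of 6 ERF branch genes (left block) and the 4 MYC2 marker genes (right block), ERF6:IOE in red at the left of each pair and GFP:IOE in grey at the right. ORA59, PDF1.2, PDF1.2b and PR4 are apart by log2 folds of 2.27 or more, whereas VSP1, VSP2 and TAT3 overlap and CLH1 is apart by 0.89.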

How the data were processed

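The data were log2 expression values in 1 table deposited by the authors (30237 rows, 6 arrays). RMA, limma and the genome build TAIR9 are named in the submitters' processing notes, without versions or settings. RMA quantile-normalises arrays, which removes overall shifts, and compresses values near the floor. Values ran from 2.16 to 14.22. Precision is limited by the number of arrays.

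Lines were compared with limma 3.58.1 (lmFit, eBayes) in R 4.3.3 on all rows, two-sided, with no filter and Benjamini-Hochberg adjustment. The procedure was tested on simulated data drawn without a shared repeat effect, so that test does not bear on pairing of the arrays. Members with 2 rows are represented by the brighter row. Members may all be named; of the other jasmonate, MYC and ERF branch lists, genes past the threshold and the 3 with the largest absolute moderated t, plus genes named as contrasts after their values were seen (ERF1, PR3, SEP3, CASP1). The members and lists were chosen with earlier results of these data known. Gene names are common names, and the RefSeq symbols (TAIR10.1) by locus differ for some, such as TIFY10B for JAZ2 and TIFY7 for JAZ9. JAM2 has only its locus code there. Coordinates are not given because the builds differ. PDF1.2c and 1 leaf marker have no row. Sequences were not used here. Alternatives were a replicate block, level filters, other normalizations, array weights, a robust prior with a variance trend, averaged rows and left-out arrays.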

Additional observations from a re-analysis of the deposited data

How the results depend on the processing

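Among the 45 jasmonate genes, the higher calls numbered 2 in the analysis reported and 1 with the repeat number as a replicate block. They numbered 4 above the median level, 4 with a variance trend and robust prior, and 1 to 2 when an array or a repeat was left out. No alternative gave a lower call. Over all rows, lower calls numbered 5 with the block, 14 above the 30th percentile and 22 above the median level, where fewer rows are tested, and 1 to 6 with arrays or repeats left out, and higher calls 45 to 126 with arrays or repeats left out. AOC1 passed in 18 of 18 alternatives, JAZ6 in 9, CLH1 in 3 and AOC2 in 2, and no other member passed in any. Of 787 member values under alternatives, 63 changed sign, none of a called gene. The labels do not say that repeat numbers mark a shared experiment, and the deviations of same-numbered arrays from their line means correlated at 0.19, 0.078 and 0.21 across all rows, and at 0.58, 0.55 and 0.50 across the 45 jasmonate genes. One all-row value is low, so the analysis reported has no block, but each of the 6 arrays correlated best with its own number, which is a hint of pairing, so a call lost with the block, as for JAZ6 and OPR1, is uncertain. With the block, adjusted p (limma) was 0.00815 for AOC1, 0.0595 for JAZ6, 0.0568 for CLH1, 0.152 for AOC2 and 0.051 for OPR1. Signal over background was not analysed here.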
